A study of Caenorhabditis elegans with 13 samples.

Results

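The Hox cluster genes of Caenorhabditis elegans were followed in sorted embryonic muscle cells and in all viable embryonic cells. The members are the probe sets that name only 1 of ceh-13, lin-39, mab-5, egl-5, nob-1 and php-3 in the platform annotation. All 6 genes have at least 1, of 17118 genes that have a probe set of their own, and the members number 9 probe sets among the 22548 on the array, while no probe set naming several genes includes a Hox gene. Of these, 3 name nob-1 (175771_at, 175709_at and 191468_s_at), 2 name mab-5 (173387_at and 176579_s_at), and each of the other 4 genes has a single probe set: ceh-13 (R13A5.5, 176615_at), lin-39 (C07H6.7, 189637_at), egl-5 (C08C3.1, 175712_s_at) and php-3 (Y75B8A.1, 191509_at). RNA was hybridised to 13 Affymetrix C. elegans arrays. M0 (3 arrays) and M24 (3 arrays) are cells of strain PD4251 that carried the integrated ccIs4251 transgene with a myo-3::GFP reporter. M0 cells were taken by fluorescence-activated cell sorting straight from dissociated embryos, and M24 cells after 24 hr in culture. R0 (3 arrays) and R24 (4 arrays) are all viable cells of wild-type N2 embryos, sorted at the same 0 hr and 24 hr. The reporter thus differed between muscle and reference along with the cell type. The myo-3 promoter marks every body wall muscle from head to tail and also the anal depressor and sphincter muscles, the sorted fraction was about 90% GFP-positive per the labels, and the reference itself holds muscle cells.

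Hox genes encode homeodomain transcription factors that give cells their identity according to position along the head to tail axis, and in most animals they lie in clusters whose order on the chromosome follows the order of expression along the body. In C. elegans the cluster is small and broken up. Along the body, ceh-13, the labial-like gene, acts furthest anterior, lin-39 in the mid-body, mab-5 in the posterior body, egl-5 in the tail, and the Abdominal-B-like pair nob-1 and php-3 acts at the posterior end of the embryo. The worm cluster is known for its roles in migrating neuroblasts, in the vulva, in the male tail and in the M lineage, the postembryonic mesoblast, while less is settled about its part in embryonic body wall muscle. In the RefSeq gene order all 6 genes lie on chromosome III. lin-39 and ceh-13 are neighbours with 0 protein-coding genes between them, 37 separate ceh-13 from mab-5, 1 separates mab-5 from egl-5, 894 separate egl-5 from php-3, and php-3 and nob-1 are again neighbours. The chromosomal order of lin-39 and ceh-13 is therefore the reverse of their order along the body.

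The sort was checked with myo-3, which encodes a body wall muscle myosin and lent the reporter its promoter. Its log2 fold change was 2.80 ± 0.45 (SE) for M0 over R0 and 1.79 ± 0.30 for M24 over R24 (limma, adjusted p = 0.00333 and 0.0133), although this probe set cannot tell transcript of the gene from any of the transgene. Of 12 body wall muscle markers, 12 were called higher in M0 and 11 in M24, against 3.95% and 2.43% of all genes. The marker not called, lev-11, was 0.88 higher in M24 (limma, adjusted p = 0.147). The summed intensity of 22 neuronal markers was 13169 to 14179 in R0 against 4260 to 5464 in M0, and that of 17 epidermal markers 11795 to 13556 against 3158 to 4715. The 15 intestinal markers summed to 1197 to 2350 in R0 and 3010 to 5285 in M0. Only 1 of them, cpl-1, was called higher in M0 (2.47 ± 0.41, limma, adjusted p = 0.00407), and the median log2 fold change of the 15 was 0.15. None of 4 markers of anal and sphincter muscle was called at either time (1 was lowered without M0 replicate 2). A pair of muscle arrays stood apart. M0 replicate 2 had the narrowest spread of log2 values at 0 hr (3.53 between the 10th and 90th percentile) and M24 replicate 3 the narrowest at 24 hr (3.91), and M24 replicate 3 had a body wall muscle marker sum of 9089 against 16878 and 19103 in replicates 2 and 1. Where leaving out either array changed the call of a Hox gene or the count of a related list, the value without it is given beside the result.

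In freshly sorted muscle 1 Hox gene, ceh-13, was raised. The fold changes of lin-39 and mab-5 were above 0 but did not pass the adjusted test. egl-5 differed little, and the posterior genes nob-1 and php-3 showed no increase that exceeded their error. The order of the fold changes was not tested, and without M0 replicate 2 that of lin-39 (1.20) lay above that of ceh-13 (1.01). In all, 1 of the 9 probe sets was raised and 0 were lowered by limma at an adjusted p under 0.05 and a fold of at least 1.7. Over all probe sets 3.81% were raised and 7.91% lowered. At an unadjusted p under 0.05 the members numbered 4, against 24.6% of all probe sets. Of the 9 fold changes 7 were above 0, as were 60.7% of all, and their median was 0.33 against 0.10 over all probe sets.

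ceh-13, which is needed to organise the anterior embryo, had log2 values of 6.44, 6.22 and 6.54 in R0 and 7.23, 7.12 and 7.58 in M0. Every muscle array lay above every reference array. The fold change was 1.88, or 0.91 ± 0.19 on the log2 scale (limma, adjusted p = 0.0133). Arrays were scanned on several days, and a pair of days held a muscle and a reference array each. Within these days the ceh-13 difference was 0.79 and 0.58, and with scan day as a fixed block it was 0.69 ± 0.20 with an adjusted p of 0.0585, so that the call was lost. It was also lost without M0 replicate 3 (0.78, adjusted p = 0.0556). In bulk RNA of this kind, more cells with a transcript and more transcript per cell cannot be told apart.

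lin-39, the Hox gene of the mid-body and of vulval precursor cells, had values of 5.67, 5.20 and 5.12 in R0 and 6.68, 5.55 and 6.38 in M0. The groups overlapped because M0 replicate 2 lay below R0 replicate 1, while M0 replicates 1 and 3 lay above all reference arrays. The difference was 0.87 ± 0.30 (limma, adjusted p = 0.100). The call changed with the fit. With the replicate number as a block the same difference had an SE of 0.21 and an adjusted p of 0.0382, and without M0 replicate 2, the array with the narrowest spread, it was 1.20 ± 0.23 (adjusted p = 0.0168). Within the scan days it was 1.00 and 0.43, the smaller value being from the day of M0 replicate 2.

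mab-5, which acts in posterior cells and in the migrating Q neuroblast lineage, was measured by a pair of probe sets that moved the same way. Probe set 173387_at gave 6.65, 6.87 and 6.94 in R0 and 7.74, 7.18 and 7.38 in M0. Probe set 176579_s_at gave 5.35, 5.54 and 5.49 in R0 and 5.75, 5.92 and 6.11 in M0. In both, the muscle arrays lay above all reference arrays. The differences were 0.61 ± 0.20 and 0.46 ± 0.17 (limma, adjusted p = 0.0867 and 0.136). Within the scan days the first probe set gave 1.09 and 0.23 and the second 0.39 and 0.43.

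egl-5, a tail gene related to Abdominal-B, read 4.39, 4.50 and 4.52 in R0 and 4.57, 5.22 and 4.60 in M0. The groups did not overlap, but M0 replicates 1 and 3 exceeded the highest reference array by less than the 0.37 SD of the muscle group. The difference was 0.33 ± 0.21 (limma, adjusted p = 0.374) and was 0.12 ± 0.16 without M0 replicate 2. Including egl-5, the muscle arrays lay wholly above the reference for 4 of the 9 probe sets and wholly below for 0. Among all probe sets 17.3% had muscle wholly above and 14.7% wholly below.

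nob-1, named for the knob-like posterior end of its mutants, did not read alike in its 3 probe sets. For 175771_at the R0 values of 6.27, 6.28 and 6.48 were close together, whereas M0 ranged from 4.98 in replicate 1 through 5.83 in replicate 3 to 6.43 in replicate 2. The difference was -0.60 ± 0.32 (limma, adjusted p = 0.297), and it was -0.94 ± 0.27 without M0 replicate 2 (adjusted p = 0.0747). Within the scan days it was -1.29 and -0.051. Probe set 175709_at read 4.90, 5.80 and 4.94 in R0 and 5.39, 4.89 and 4.98 in M0, a difference of -0.13 ± 0.27 whose sign changed within the first scan day (0.48). Probe set 191468_s_at read 3.63, 3.60 and 3.96 in R0 and 3.69, 4.17 and 3.78 in M0, with a difference of 0.15 ± 0.20. The differences of 175709_at and 191468_s_at were smaller than their errors and gave no direction, and none of the 3 differences passed the test. On the 0 hr arrays only 0.83% to 6.5% of probe sets lay below 191468_s_at. Calls of presence were not used here, so whether the dimmer probe sets rose above background is not known.

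php-3, the neighbour and close relative of nob-1, read 5.27, 5.32 and 5.53 in R0 and 5.32, 5.87 and 5.40 in M0. The groups overlapped, and only M0 replicate 2 lay above all reference arrays. The difference was 0.16 ± 0.20 (limma, adjusted p = 0.653), and -0.02 ± 0.17 without that array.

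**Figure D1:**
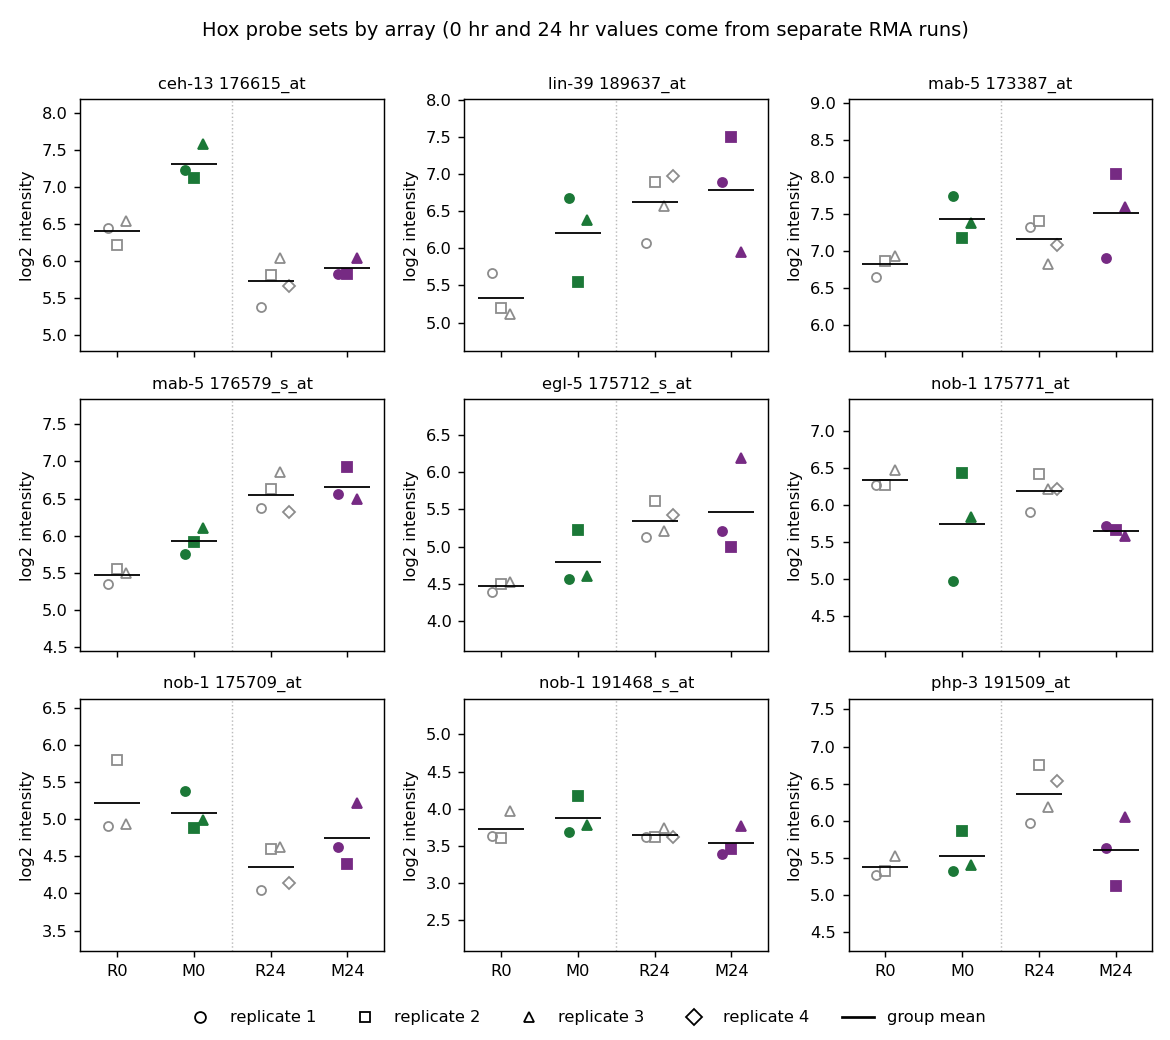
Log2 intensity of each of the 9 Hox probe sets on the 13 arrays, in groups R0, M0, R24 and M24, with 1 symbol per replicate (open for reference, filled for muscle) and a bar at the group mean. Each panel spans the same number of log2 units. The 3 M0 arrays lie above all R0 arrays for ceh-13, both mab-5 probe sets and egl-5, and M24 lies below all R24 arrays for nob-1 175771_at.

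After 24 hr in culture no Hox gene was called, and the fold changes ran from 0.39 for nob-1 175709_at to -0.76 for php-3. None of the 9 probe sets was called in either direction by limma, and 2 (nob-1 175771_at and php-3) had an unadjusted p under 0.05. Over all probe sets 2.26% were raised, 5.93% lowered and 29.9% had an unadjusted p under 0.05. Of the 9 fold changes 6 were above 0, against 59.4% of all, and their median was 0.12 against 0.09 over all probe sets. The muscle arrays lay wholly above the reference for 0 of the 9, against 16.5% of all.

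ceh-13 read 5.38, 5.82, 6.05 and 5.66 in R24 and 5.83, 5.83 and 6.05 in M24. The muscle arrays lay in the upper part of the reference range, and the difference was 0.17 ± 0.17 (limma, adjusted p = 0.510). lin-39 read 6.07, 6.89, 6.57 and 6.98 in R24 and 6.89, 7.50 and 5.95 in M24. The muscle arrays spread over more than the whole reference range, with M24 replicate 3 lowest and replicate 2 highest. Its difference was 0.15 ± 0.38, and 0.57 ± 0.30 without M24 replicate 3 (adjusted p = 0.238).

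For mab-5, probe set 173387_at read 7.33, 7.41, 6.83 and 7.08 in R24 and 6.90, 8.04 and 7.60 in M24. Probe set 176579_s_at read 6.37, 6.62, 6.86 and 6.32 in R24 and 6.56, 6.93 and 6.49 in M24. Both pairs of groups overlapped, and the differences of 0.35 ± 0.28 and 0.11 ± 0.18 were about the size of their errors. egl-5 read 5.12, 5.62, 5.21 and 5.42 in R24 and 5.22, 4.997 and 6.19 in M24. A single muscle array, replicate 3, exceeded the reference, and the difference of 0.12 ± 0.29 became -0.24 ± 0.17 without it.

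Of the posterior genes, nob-1 varied with the probe set again. For 175771_at the values were 5.90, 6.41, 6.21 and 6.22 in R24 and 5.72, 5.66 and 5.58 in M24. Every muscle array lay below every reference array, which held for 12.4% of all probe sets. The difference was -0.53 ± 0.14, a fold of 1.45 (limma, adjusted p = 0.0566), below the fold minimum whatever its p. The other nob-1 probe sets gave 0.39 ± 0.24 (175709_at) and -0.11 ± 0.12 (191468_s_at), so that the lower level was seen with a single probe set. php-3 read 5.97, 6.75, 6.18 and 6.54 in R24 and 5.63, 5.13 and 6.05 in M24. M24 replicate 3 alone reached into the reference range. The difference was -0.76 ± 0.27 (limma, adjusted p = 0.118), and without that array it was -0.98 ± 0.26 (adjusted p = 0.0502).

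**Figure D2:**
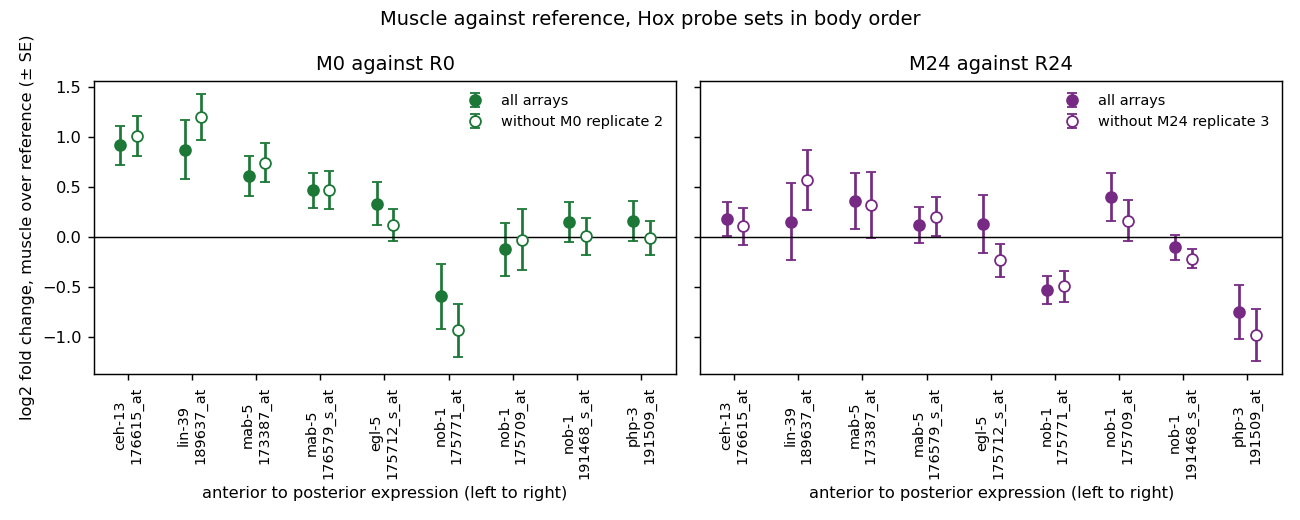
Log2 fold change of muscle over reference (± SE, limma) for the 9 probe sets, ordered from anterior to posterior expression, at 0 hr (left, 3 against 3 arrays) and 24 hr (right, 3 against 4). Filled points use all arrays and open points leave out M0 replicate 2 or M24 replicate 3. At 0 hr ceh-13 is at 0.91, egl-5 at 0.33 and php-3 at 0.16. The nob-1 probe sets 175771_at, 175709_at and 191468_s_at are at -0.60, -0.13 and 0.15. Without M0 replicate 2 lin-39 (1.20) lies above ceh-13 (1.01). The order was not tested. At 24 hr php-3 is lowest at -0.76.

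Levels at 0 hr and 24 hr came from separate normalizations and were compared only through the enrichment, muscle over reference, at each time. The enrichment of ceh-13 was lower at 24 hr by 0.74 ± 0.26 on the log2 scale (difference of -0.74, limma, adjusted p = 0.207), and that of php-3 differed by -0.91 ± 0.35 (adjusted p = 0.265). lin-39 differed by -0.72 ± 0.53. The remaining probe sets lay between -0.35 and 0.52. None of the 9 was called and 2 had an unadjusted p under 0.05, where 1.93% of all probe sets were called and 12.9% had such a p. An enrichment of ceh-13 particular to fresh muscle was thus not established by these arrays. After quantile normalization of all 13 arrays together the ceh-13 difference was -1.02 ± 0.21 and passed (adjusted p = 0.0264).

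The Hox genes that act further back along the body were also set against ceh-13 within each array. The log2 value of ceh-13 was subtracted from that of each other Hox probe set. This ratio removes only what moved both genes by the same amount on 1 array. At 0 hr the ratio of nob-1 175771_at to ceh-13 was -0.17, 0.06 and -0.06 in R0 and -2.25, -0.70 and -1.75 in M0. The muscle arrays were all lower, by 1.51 in the mean (change of -1.51). The ratio of php-3 was -1.17, -0.90 and -1.02 in R0 and -1.91, -1.26 and -2.18 in M0, a change of -0.76. For nob-1 175709_at and 191468_s_at the changes were -1.04 and -0.77. These 4 posterior probe sets and mab-5 176579_s_at (-0.45) had ratios that did not overlap between groups, as did 69.5% of all 22547 other probe sets in the same direction, whereas those of lin-39 (-0.04), mab-5 173387_at (-0.30) and egl-5 (-0.58) did. An exact two-sided permutation test over 3 against 3 arrays cannot go below 0.1, the value reached by all 5. The limma fit of these ratios called nob-1 175771_at and 175709_at, but it also called 57.5% of all other probe sets. ceh-13 itself was 0.91 higher in M0, so that a probe set with no change of its own has a lower ratio there, and nothing particular to the posterior genes was read from the ratios at 0 hr.

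At 24 hr the ratio of nob-1 175771_at to ceh-13 was 0.52, 0.59, 0.16 and 0.55 in R24 and -0.11, -0.17 and -0.47 in M24. The groups were separate, with a change of -0.71 (exact two-sided permutation test, p = 0.0286, the smallest that 3 against 4 arrays allow, limma adjusted p = 0.0828). The ratio of php-3 was 0.59, 0.94, 0.14 and 0.87 in R24 and -0.19, -0.70 and 0.01 in M24. These groups were separate as well, with a change of -0.93 (exact permutation p = 0.0571, limma adjusted p = 0.0639). Of all probe sets 14.1% were separate in this direction. None of the 8 ratios was called by limma at 24 hr, where 8.41% of all probe sets were. The other 6 ratios changed by -0.28 to 0.22 (exact permutation p of 0.143 to 0.943).

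The spread within groups had a pattern of its own, which bears on how the mid-body and tail genes compare. lin-39 was lowest of its group in M0 replicate 2 and in M24 replicate 3, at 0.65 and 0.83 below the group mean (deviations of -0.65 and -0.83). In these same arrays egl-5 was the highest of its group (0.43 and 0.72 above the mean), as were php-3 (0.34 and 0.45) and nob-1 191468_s_at (0.29 and 0.22). The other nob-1 probe sets were not the highest in both, with 0.68 and -0.07 for 175771_at and -0.20 and 0.47 for 175709_at. ceh-13 deviated by -0.19 and 0.14. These are the arrays with the narrowest spread of values, and the part of this in the Hox values was not tested. Without them the fold changes at 0 hr ran from 1.20 for lin-39 to -0.94 for nob-1 175771_at, and at 24 hr from 0.57 for lin-39 to -0.98 for php-3. Across the 13 arrays, as deviations from group means, egl-5 and php-3 had a Pearson r of 0.90 and lin-39 and egl-5 one of -0.67. Over the 11 arrays left without M0 replicate 2 and M24 replicate 3, r was 0.96 for egl-5 and php-3 and 0.28 for lin-39 and egl-5, so that the negative value was not kept. These values describe arrays that share a normalization at each time.

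**Figure D3:**
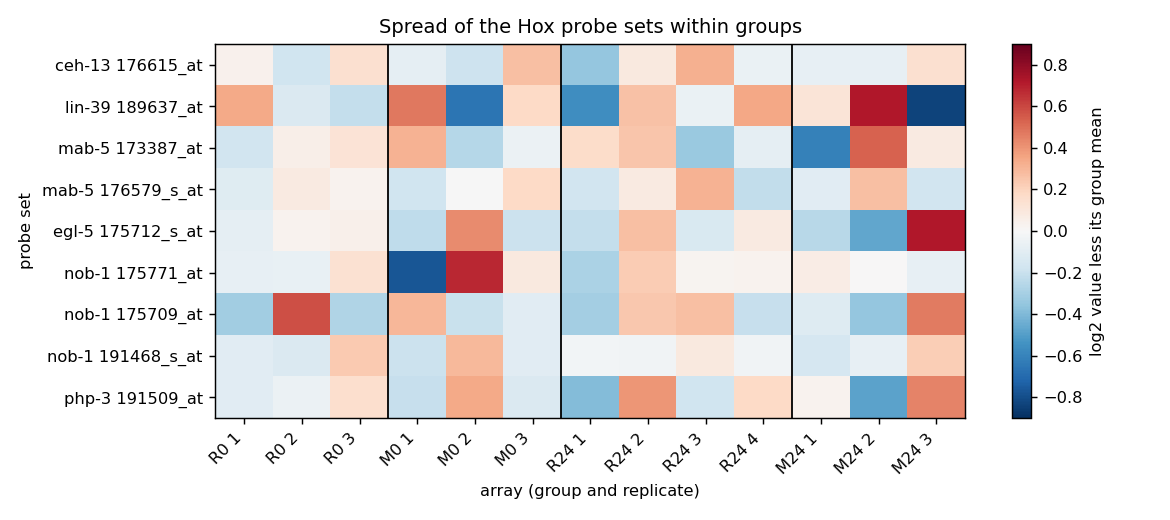
Deviation of each Hox probe set (rows, anterior at the top) from its group mean in log2 units on each array (columns, black lines between groups). Red is above and blue below the mean of the group. Within M0 and within M24, lin-39 is lowest of its group where egl-5 and php-3 are highest, in M0 replicate 2 and M24 replicate 3. In R24, replicate 1 is lowest for lin-39 (-0.56), egl-5 (-0.22) and php-3 (-0.39) alike.

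The genes whose values most resembled those of each Hox gene were sought across the 13 arrays after centring each time on its mean. The 2 nearest to ceh-13 were pry-1, the worm Axin, and Y71F9AR.2 (Pearson r = 0.92 for both). Both were raised in M0 (0.85 and 1.82) and close to 0 in M24 (0.05 and -0.09). A likeness to the fold changes of ceh-13 follows from the choice, since centring by time left the muscle difference in. metl-6 (0.92) and tag-131 (0.91) were nearest to lin-39, and ugt-27 (0.90) and Y113G7A.12 (0.88) to mab-5. sra-28 and C15H9.3 (both 0.95) were nearest to egl-5, Y53F4B.9 (0.96) and crn-1 (0.89) to nob-1, and C34F6.1 and clec-174 (both 0.96) to php-3. The number of genes with an r over 0.9 was 35 for egl-5 and 11 for php-3, against 3 for ceh-13 and 2 for lin-39. Such maxima over 17118 genes and 13 arrays are a description and carry no test.

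Genes that work with or upstream of the Hox genes were taken next, with 1 probe set per gene. Of 17118 genes measured this way, 3.95% were raised and 8.27% lowered at 0 hr, and 2.43% and 6% at 24 hr. The 5 cofactor genes, which encode the PBC and MEIS-type homeodomain partners of Hox proteins and the MEIS-related psa-3, had 0 raised and 0 lowered at both times, and none had an unadjusted p under 0.05. unc-62, the Homothorax relative, had the smallest p at 0 hr, with 7.96, 8.33 and 8.29 in R0 and 8.41, 8.62 and 8.62 in M0. Its muscle arrays were all higher, by 0.36 ± 0.18 (limma, adjusted p = 0.260). ceh-20, the Extradenticle relative, had the smallest p at 24 hr with a difference of -0.39 ± 0.21 (adjusted p = 0.242).

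Among 12 measured regulators of Hox expression, including Polycomb-type repressors, 0 were raised and 1 was lowered at each time, with 1 probe set per gene. Over all 24 probe sets of these genes, 1 was raised and 2 were lowered at 0 hr, and 0 and 1 at 24 hr. lin-1 was 0.71 higher at 0 hr and not called (limma, adjusted p = 0.0649). mes-4, a histone methyltransferase of the germ line and early embryo, read 7.70, 7.75 and 7.68 in R0 and 6.27, 6.91 and 6.47 in M0. All muscle arrays lay lower, by 1.16 in the mean (log2 fold change of -1.16 ± 0.20, limma, adjusted p = 0.00504), and the change at 24 hr was -1.09 ± 0.21 (adjusted p = 0.0200). A further mes-4 probe set, 188620_s_at, gave -0.31 and -0.86 and was not called at either time. The repressors mes-2, mes-3 and sop-2 changed by 0.20, -0.04 and -0.04 at 0 hr and were not called.

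The Wnt pathway, through which the beta-catenin BAR-1 activates lin-39 and mab-5 in other tissues, held the greatest number of raised genes in fresh muscle among these lists apart from the muscle markers. Of 27 genes 6 were raised and 3 lowered at 0 hr, with a median of 0.02 against 0.10 over all genes. The ligand gene cwn-2 read 6.53, 5.45 and 6.30 in R0 and 8.59, 7.57 and 8.36 in M0. Its muscle arrays were all higher, by 2.08 ± 0.34 (limma, adjusted p = 0.00364). sfrp-1, a secreted Wnt antagonist of the anterior body, read 8.71, 8.54 and 8.73 in R0 and 10.71, 10.27 and 10.97 in M0, a difference of 1.99 ± 0.21 (adjusted p = 0.00044). bar-1 itself read 7.31, 7.15 and 7.04 in R0 and 8.69, 8.40 and 8.99 in M0, a difference of 1.52 ± 0.20 (adjusted p = 0.00124). The raised genes also included pry-1, a negative regulator of BAR-1 signalling, with 6.95, 6.77 and 7.18 in R0 and 7.55, 7.64 and 8.26 in M0. Its call was lost without M0 replicate 2 (0.93, adjusted p = 0.0638). The remaining pair, named after their values were seen, were the ligand gene cwn-1 (1.25) and lin-18 (0.89), which encodes a Ryk-type Wnt receptor. The lowered genes, also named after the fact, were dsh-2 (-1.35), wrm-1 (-1.33) and hmp-2 (-0.91), of which the last pair encodes beta-catenins of cell polarity and adhesion. Without M0 replicate 2 hmp-2 was not called (-0.79, adjusted p = 0.0579), and the counts were 5 raised and 2 lowered, where 4.22% of all genes were raised and 6.48% lowered. egl-20, the tail Wnt that induces mab-5 in Q cells, changed by 0.28 (adjusted p = 0.460).

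At 24 hr 0 of the 27 Wnt genes were raised and 3 were lowered: cfz-2, a Frizzled receptor gene (-1.72 ± 0.28, limma, adjusted p = 0.0125), apr-1, the APC relative (-1.09 ± 0.18), and wrm-1 (-1.07 ± 0.27). M24 replicate 3 decided the count of raised genes. Its cwn-2 value was 4.94, against 7.57 and 7.83 in the other M24 arrays and 5.10 to 5.69 in R24. Without it 6 Wnt genes were raised, namely cwn-1, cwn-2, sfrp-1, mig-1, lin-18 and bar-1, while the share of all genes raised went to 5.5%. The lowered genes were then 2, without wrm-1 (-0.95, adjusted p = 0.0795), and 6.53% of all genes were lowered. In the difference of enrichment 0 of the 27 were called (1.04% of all genes were raised and 0.952% lowered).

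Factors that assign mesodermal lineage or body region gave 2 raised and 5 lowered of 21 genes at 0 hr, and 2 raised and 2 lowered at 24 hr. Without the arrays of narrowest spread 3 were lowered at each time, since ceh-24 (-0.77) and pos-1 (-0.77) were no longer called at 0 hr and mls-2 was called at 24 hr (-0.84, limma, adjusted p = 0.0295). The raised genes were the same at both times: hlh-1, the MyoD relative (2.61 ± 0.25 and 2.38 ± 0.21), and unc-120, the SRF-type MADS-box factor (2.22 ± 0.37 and 2.26 ± 0.39). Among the lowered genes was pal-1, the Caudal relative of the posterior embryo, which read 8.76, 8.99 and 9.06 in R0 and 6.95, 7.11 and 7.34 in M0. Its muscle arrays lay lower throughout, and the change at 24 hr was -1.43 ± 0.24 (limma, adjusted p = 0.0135), although probe set 193342_s_at of pal-1 was called at 0 hr only (-0.88 and -0.53) and 193341_at gave -0.17 and -0.14 without a call. mls-2, an M lineage homeobox gene, was lowest at 0 hr with -1.84 ± 0.22. Of its other probe sets, 189498_s_at was called as well (-1.32) and 182023_at gave 0.01. vab-7, the Even-skipped relative of posterior muscle and epidermis, changed by 0.04 (adjusted p = 0.940).

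Genes known to be under Hox control in epidermis, neurons or the M lineage had 0 raised and 3 lowered of 8 at both times, and 2 lowered at 0 hr without M0 replicate 2, where mec-7 lost its call (-1.37, limma, adjusted p = 0.121). elt-6, a GATA factor gene of seam and vulval cells, changed by -1.90 ± 0.26 and -1.50 ± 0.20, mec-7, a touch neuron tubulin gene, by -1.59 ± 0.40 and -2.12 ± 0.37, and eff-1, the epidermal cell fusion gene, by -1.33 ± 0.17 and -2.68 ± 0.20. Only eff-1 differed between the times among these 8 (-1.35 ± 0.26, limma, adjusted p = 0.0225). Further probe sets of these genes gave smaller changes, from -0.08 (eff-1 181806_at) to -1.35 (mec-7 171793_x_at) at 0 hr. Neuronal and epidermal markers moved the same way, with 13 of 22 and 11 of 17 lowered at 0 hr (10 and 9 without M0 replicate 2) and summed levels as given above, and their part in these values was not tested.

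The Hox genes were set beside other conserved homeobox genes. Of 49 other homeobox genes 2 were raised and 18 lowered at 0 hr, with a median of -0.48, and 0 were raised and 11 lowered at 24 hr, with a median of -0.24. Without M0 replicate 2 the counts at 0 hr were 2 and 14. Without M24 replicate 3 those at 24 hr were 2 and 13, the raised genes being ceh-33 (3.03, limma, adjusted p = 0.00065) and ceh-34 (1.28, adjusted p = 0.0101). Of the 6 Hox genes 1 was raised and 0 were lowered at 0 hr, and 0 were called at 24 hr, and so few genes give no share to read against the 8.27% of all genes that were lowered. Whether the families differ was not tested. The SIX-type gene ceh-33 was raised at 0 hr (2.25 ± 0.38, limma, adjusted p = 0.00449). ceh-32 (-2.04 ± 0.18) and ceh-43 (-1.92 ± 0.26), homeobox genes of the head, were the lowest at 0 hr, and ceh-43 (-3.20 ± 0.19), lin-11 (-2.73 ± 0.23) and lim-7 (-1.80 ± 0.27) at 24 hr. With 1 probe set per gene, ttx-1, an Otx relative of thermosensory neurons, was the 1 homeobox gene whose enrichment differed between the times (1.59 ± 0.26, limma, adjusted p = 0.00953). Over all 68 probe sets of these genes, 2 were raised in the difference. ttx-1 was lowered at 0 hr (-1.83) and not called at 24 hr (-0.24), so that its difference is a weaker depletion. Second probe sets of ceh-32, lin-11 and ttx-1 were not called at either time.

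**Figure D4:**
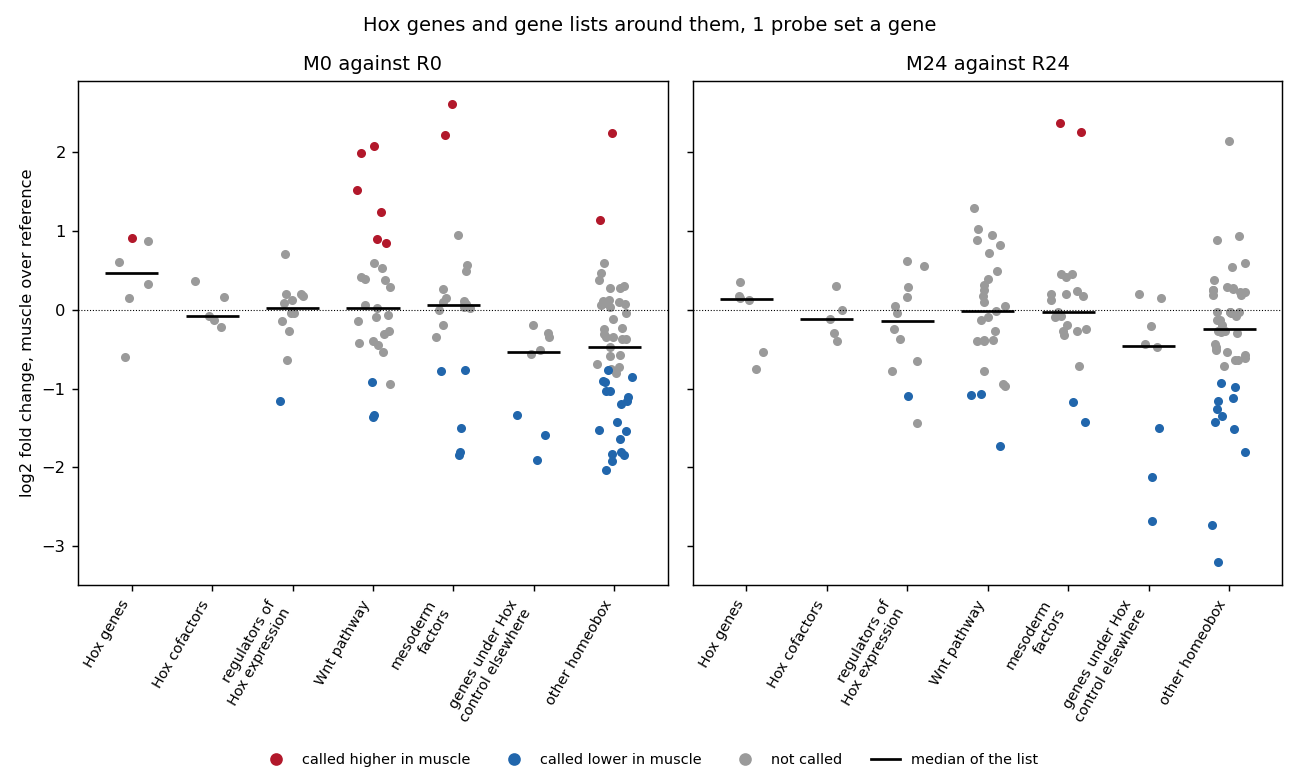
Log2 fold change of muscle over reference for the 6 Hox genes and for 6 lists of related genes, 1 probe set per gene, at 0 hr (left) and 24 hr (right). Each point is a gene, red where called higher in muscle, blue where called lower and grey otherwise, and the bar is the median of the list. The Wnt list holds 6 red points at 0 hr, and 18 of 49 other homeobox genes are blue.

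At 24 hr the scan day limits every call above. The 3 scanned R24 arrays with a record shared 1 day and each M24 array had a day of its own, so that no day held both groups. With scan day as a random block and without R24 replicate 4, which has no record, limma called 0 of 22548 probe sets. With that array taken as a day of its own it called 188 raised and 430 lowered, none of them a Hox probe set.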

How the data were processed

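For each sample the authors used 100 ng of total RNA, amplified in 2 rounds, and summarised probe sets by robust multiarray analysis (RMA, version not given in the sources used here). The deposited values are intensity on a linear scale. Other deposited text, scanner settings, gave scan days of 12 arrays. Pairs of arrays shared up to 1410 distinct values within a time and at most 1 across times, so each time was taken as its own RMA run. RMA sets equal distributions of single-probe values within a run, while the summarised values of the arrays still differed in spread, as given above. It also draws in low values, which understates changes of dim probe sets. Array number limits the precision.

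Intensities were log2-transformed without pseudocount. Muscle was set against the reference of its own time, and the enrichments at the 2 times against each other, by limma 3.58.1 (R 4.3.3, lmFit and eBayes, two-sided) over all 22548 probe sets, with Benjamini-Hochberg adjustment. A call needed an adjusted p under 0.05 and a fold of at least 1.7. The labels call arrays of a group biological replicates. On simulated data limma recovered 31% of probe sets changed by 1 log2 unit at 0 hr and 36% at 24 hr, and 78% and 73% of those changed by 2. Only 100 probe sets were changed by each amount among 22548, a smaller share than was called in the data. The adjustment was thus set differently, and these rates need not hold for the fits here. For lists, the probe set of highest mean named a gene. Symbols follow the platform table, and gene order is from RefSeq (WBcel235). The members and lists were chosen with earlier results of these data known. Named were all members, myo-3, up to 3 called genes of largest change per list and comparison (or else that of smallest p), and the 2 genes most correlated with each Hox gene. Deviations of same-numbered R0 and M0 arrays from their group means correlated at 0.22, 0.32 and 0.15. Those of differently numbered arrays correlated at -0.40 to 0.27, so that a pairing at 0 hr was not settled. The main fits were therefore unpaired, and the replicate block is given only as an alternative. The labels do not say what the numbers share.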

Additional observations from a re-analysis of the deposited data

Results flagged for a closer look

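In R24, nob-1 191468_s_at read 3.62, 3.61, 3.73 and 3.61, and replicate 3 stood apart from the other arrays, with a gap of 0.928 of the whole range of the group. The whole range is small beside the spread of the other groups for this probe set. Chance marks about 1 in 20 groups in this way, and R24, the only group of 4 arrays, was examined for each of the 9 probe sets.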

How the results depend on the processing

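Counts and single values shifted with the processing in a few settings, each cause being untested unless the setting itself shows it. At 0 hr the count of raised Hox probe sets was 2 under quantile normalization of all arrays (mab-5 173387_at 0.81, adjusted p = 0.0288), array weights (lin-39 1.18) and the replicate block (lin-39 0.87), 0 with scan day as a fixed block (ceh-13 0.69), and 0 to 2 with each array left out. Within single scan days ceh-13 was 0.58, mab-5 173387_at 1.09 and 0.23, egl-5 0.71, nob-1 175771_at -1.29 and -0.051, and nob-1 175709_at 0.48. Quantile normalization gave 1 lowered member in the difference of enrichment (ceh-13 -1.02). The replicate block changed no other call of a member. At 24 hr the deviations of same-numbered arrays correlated at 0.21, -0.044 and 0.38, so that 1 pair of 3 did not deviate together and the numbers were not taken as pairing the arrays, and the block gave 0 calls there and in the difference.

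Signs turned under array weights for nob-1 175709_at (0.063), nob-1 191468_s_at (-0.10) and php-3 (-0.055) at 0 hr, egl-5 at 24 hr (-0.16), and mab-5 173387_at (0.19) and nob-1 191468_s_at (0.040) in the difference, and under the fixed scan-day block for nob-1 175709_at (0.21). Leaving out each array gave, at 0 hr, ceh-13 0.78 to 1.01, lin-39 0.63 to 1.20, nob-1 175709_at -0.28 to 0.16 and php-3 -0.015 to 0.26. At 24 hr it gave lin-39 -0.21 to 0.57, mab-5 176579_s_at -0.020 to 0.22 and egl-5 -0.24 to 0.36, and in the difference mab-5 173387_at -0.52 to 0.049, egl-5 -0.56 to 0.030 and nob-1 175771_at -0.32 to 0.40.

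For the ratio to ceh-13 the calls went from 1 to 5 at 0 hr and 0 to 2 at 24 hr with an array left out. Ratio changes then ranged from -0.32 to 0.19 for lin-39 at 0 hr, and at 24 hr from -0.42 to 0.46 for lin-39, -0.12 to 0.45 for mab-5 173387_at, -0.23 to 0.10 for mab-5 176579_s_at and -0.34 to 0.15 for egl-5. By the exact permutation test, which cannot reach 0.05 there, the 0 hr changes of nob-1 175771_at (-1.51) and 175709_at (-1.04) were no longer called. A second ceh-13 probe set was not at hand, so that alternative gave no value. With all probe sets of each list, Wnt calls of lower level were 6 at 0 hr and 5 at 24 hr. The exact test, the R24 replicate 4 setting and the lists and correlations without the narrowest arrays were chosen after seeing the data.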
